A study of Caenorhabditis elegans with 12 samples.

Results

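Whole Caenorhabditis elegans that combined a loss of daf-2 function with a gain of skn-1 function (daf-2lf;skn-1gf, called the double mutant below) were compared with worms that carried the gain of skn-1 function alone (skn-1gf), with 3 RNA-seq libraries of each. These 6 libraries were chosen by the genotype in their labels from the 12 of the series. Both genotypes carry skn-1gf, so the labels set them apart by daf-2lf. The other 6 libraries, 3 of wild type (WT) and 3 of daf-2lf, are used where the same loss of daf-2 function is measured without skn-1gf. All worms were grown on NGM plates with the E. coli strain OP50, and RNA was taken from whole animals. The labels name no allele, age, sex or stage at harvest, so genotype and stage cannot be told apart. They do not say whether replicates were separate cultures, so the p-values measure the spread between these samples. In RNA from whole worms, fewer cells of a type and less RNA per cell cannot be told apart either.

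DAF-2 is the worm's only receptor of the insulin/IGF-1 receptor family. Its signal runs through the kinases AGE-1, PDK-1, AKT-1 and AKT-2 and keeps the forkhead transcription factor DAF-16 out of the nucleus. When DAF-2 activity falls, DAF-16 enters the nucleus and raises genes of stress resistance and fat metabolism, and the animals live longer. SKN-1, the worm counterpart of the Nrf transcription factors, drives detoxification and glutathione genes, above all in the intestine. DAF-2 signalling also restrains SKN-1, and skn-1gf worms have SKN-1 active whatever DAF-2 does.

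The smallest of these 6 libraries was skn-1gf replicate 2, with 16779245 counts, and the largest double mutant replicate 3, with 29346039. Log2 levels correlated at 0.962 to 0.984 among the skn-1gf libraries, at 0.992 to 0.994 among the double mutants and at 0.803 to 0.840 between the genotypes. The first principal component carried 90.7% of the variance and separated the genotypes. The second carried 5.34%, with skn-1gf replicates 2, 1 and 3 at -46.6, 0.187 and 41.6 and the double mutants close together. Thus the spread in this comparison lay mostly within skn-1gf. Of the other libraries daf-2lf replicate 1 stood apart, for instance with daf-2 at 26.8 CPM against 125.2 and 126 CPM in its replicates, and results that use it are given with and without it. Levels below are CPM (counts per 1e6 counts after TMM scaling), given for replicates 1, 2 and 3 in that order. A count of 3, the floor used for bounds, corresponds to 0.124 to 0.192 CPM in the skn-1gf libraries and 0.105 to 0.136 in the double mutants. Bounds and floors cover counting error only.

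The targeted genes were examined first. On the reference WBcel235, daf-2 (minus strand of chromosome III from 2994514 to 3040846, gene identifier 175410) had 93.1, 88.8 and 93.7 CPM in skn-1gf and 129, 123 and 130.1 CPM in the double mutant (log2 0.45, SE 0.082, adjusted p = 0.00296). All 3 double mutant libraries lay above all 3 skn-1gf ones. With the allele not given, this level does not test the genotype. The gene skn-1 (minus strand of chromosome IV from 5651039 to 5660384, gene identifier 177343) had 153, 147 and 147 CPM in skn-1gf and 222, 207 and 231 CPM in the double mutant (log2 0.54, SE 0.085, adjusted p = 0.00144). Overlapping genes amounted to 19.3% of the skn-1 counts, and strand handling is not given in the sources used here. The gene daf-16 (plus strand of chromosome I from 10750498 to 10776703, gene identifier 172981) had 146, 149 and 143 CPM in skn-1gf and 202, 194 and 193 CPM in the double mutant (log2 0.41, SE 0.078, adjusted p = 0.00396). For daf-16 and skn-1 too the libraries of the genotypes did not overlap, as was so of 26.6% of tested genes with the double mutant higher and 30% with it lower. The daf-2 and daf-16 calls were lost in the fit to all 12 libraries and after removal of a gene length trend, with adjusted p up to 0.529 and 0.147.

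With daf-2lf, a large part of the transcriptome of skn-1gf worms differed. Of 14823 genes tested, 6147 (41.5%) were called at an adjusted p under 0.05. The double mutant was higher in 2559 (17.3%) and lower in 3588 (24.2%), and the median log2 change of all tested genes was -0.06. At least 2-fold differences were called for 3144 genes (21.2%), 1254 higher and 1890 lower. Read against these shares, the lists with the most members higher were those of molting, astacin metalloproteases, hedgehog-related genes, body shape collagens and DAF-16-activated genes. The lists with the most members lower were those of sperm, yolk, ribosomes and lipid-binding proteins.

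**Figure D1:**
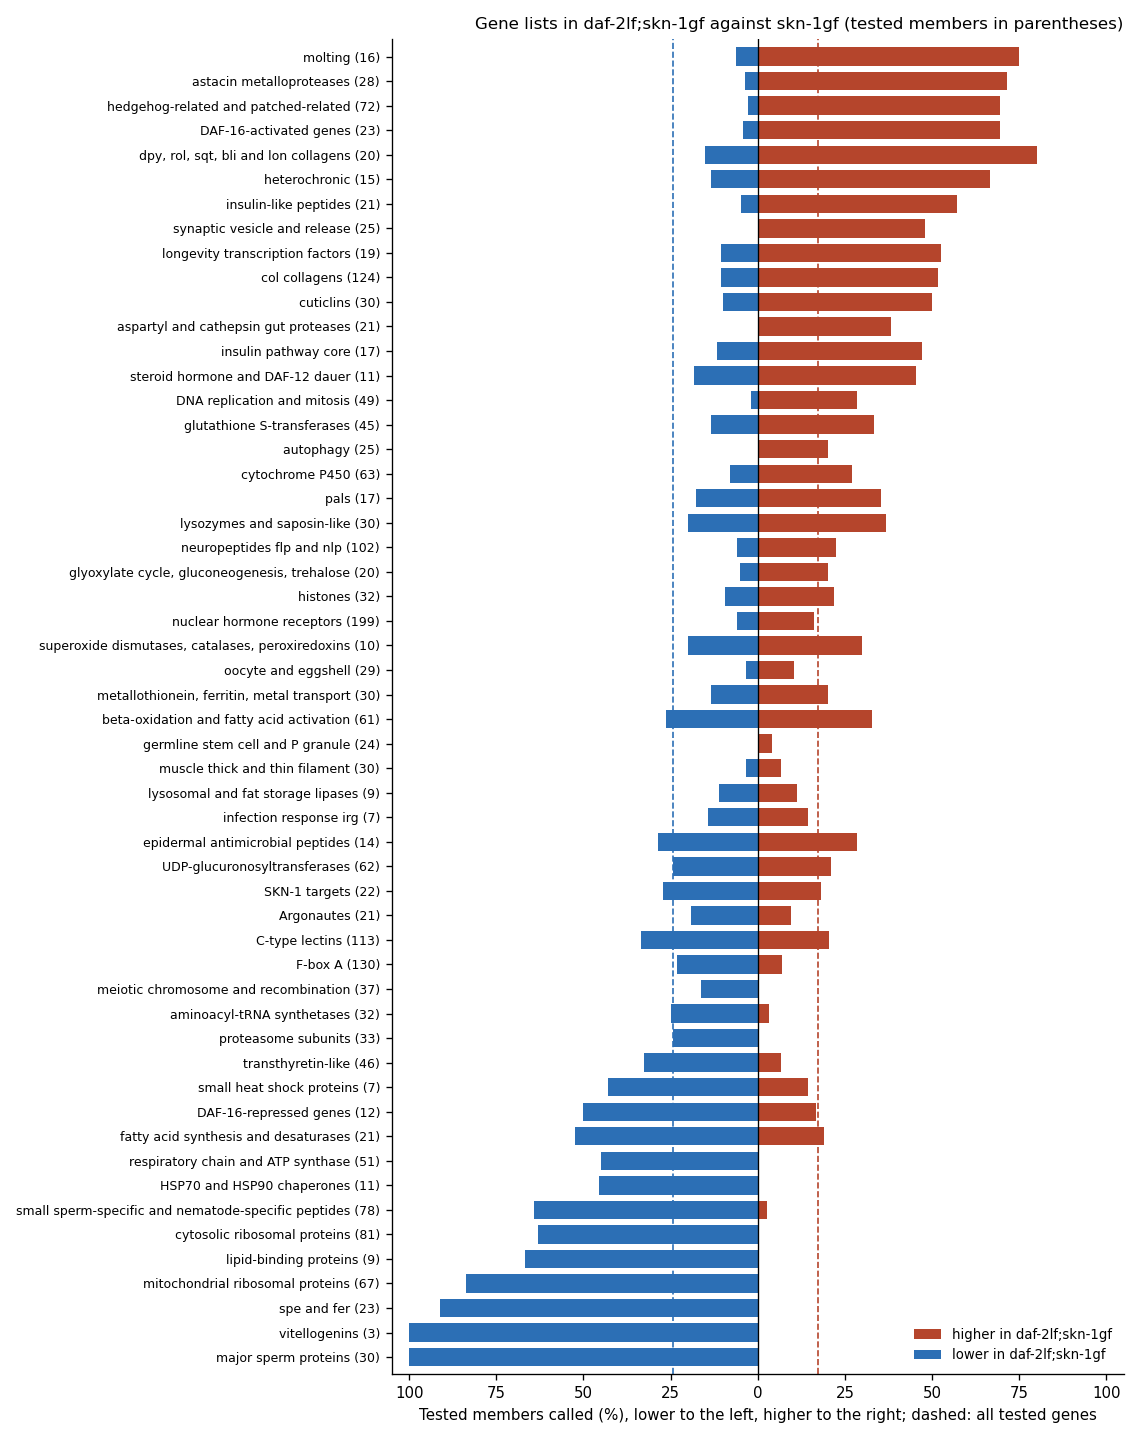
Share of the tested members of 54 gene lists called higher (red, to the right) or lower (blue, to the left) in daf-2lf;skn-1gf than in skn-1gf, in percent, with the number tested in parentheses. Dashed lines mark the shares over all tested genes, 17.3% higher and 24.2% lower. All 30 tested major sperm proteins were lower, and 16 of 20 body shape collagens were higher.

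Genes that DAF-16 is known to activate were mostly higher in the double mutant. Of the 32 genes listed, 23 were tested, 16 rose and 1 fell, with a median log2 change of 1.52. The mitochondrial superoxide dismutase gene sod-3, the usual reporter of DAF-16 activity, had 0.629, 0.319 and 0.497 CPM in skn-1gf and 13.6, 11.5 and 12.9 CPM in the double mutant (log2 4.64, SE 0.25, adjusted p = 1.8e-05). The metallothionein gene mtl-1, which encodes a small metal-binding protein, had 0.180, 0.255 and 0 CPM in skn-1gf and 3.41, 2.64 and 2.55 CPM in the double mutant (log2 4.37, SE 0.60, adjusted p = 6.7e-04). For both genes every double mutant library lay far above every skn-1gf library. Overlapping genes amounted to 86.9% of the sod-3 counts.

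The largest rises of the list were those of sip-1 and dod-3. The small heat shock protein gene sip-1 had 5.35, 3.58 and 8.04 CPM in skn-1gf and 217, 226 and 216 CPM in the double mutant, 37.5-fold more (log2 5.23, SE 0.26, adjusted p = 1.7e-05). The gene dod-3, named for lying downstream of DAF-16, had 0.360, 0.383 and 0.373 CPM in skn-1gf and 13.96, 13.5 and 10.9 CPM in the double mutant, 33.4-fold more (log2 5.06, SE 0.23, adjusted p = 1.3e-05). In WT worms dod-3 had 3.06, 4.72 and 3.004 CPM and sip-1 24.6, 33.5 and 23.4 CPM, so skn-1gf libraries were the lowest of the 4 genotypes for both. The rise with daf-2lf was larger with skn-1gf than without it, by log2 3.55 (adjusted p = 4.4e-05; 3.68 without daf-2lf replicate 1) for dod-3 and log2 2.60 (adjusted p = 6.7e-04; 2.84 without daf-2lf replicate 1) for sip-1 in the test of the difference. The other genes that rose were ctl-1, ctl-2, dod-6, fat-5, ftn-1, hil-1, icl-1, lea-1, lys-7, nnt-1, tps-2 and tts-1. They include the catalase genes, the ferritin gene ftn-1, a desaturase gene and a trehalose synthase gene. The one that fell was hsp-12.3, a small heat shock protein gene, with 5.57, 11.2 and 4.56 CPM in skn-1gf and 1.18, 1.96 and 1.22 CPM in the double mutant (log2 -2.29, SE 0.39, adjusted p = 0.00216). Its skn-1gf libraries were all above the double mutant ones, with replicate 2 the highest.

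Genes that DAF-16 is known to repress fell in part. Of 12 tested of the 16 listed, 6 fell and 2 rose, with a median log2 change of -0.48. The CUB-domain gene dod-24 (minus strand of chromosome IV from 12940106 to 12941354, gene identifier 178245) had 3000.5, 3396 and 1644 CPM in skn-1gf and 819, 877 and 836 CPM in the double mutant (log2 -1.69, SE 0.24, adjusted p = 8.3e-04). WT worms had 40.5, 59.8 and 51.1 CPM and daf-2lf worms 10.9, 9.51 and 12.7 CPM, so the double mutant libraries stood above those of both these genotypes and below those of skn-1gf. The stearoyl-CoA desaturase gene fat-7 had 116, 128 and 118.6 CPM in skn-1gf and 22.3, 22.9 and 17.3 CPM in the double mutant (log2 -2.56, SE 0.13, adjusted p = 1.7e-05). The gut esterase gene ges-1 went the other way, from 53.5, 50.4 and 43.3 CPM to 105.02, 109 and 114 CPM (log2 1.13, SE 0.10, adjusted p = 9.1e-05). The lipase-related gene lips-7 also rose (log2 3.40, SE 0.30, adjusted p = 8.9e-05), but overlapping genes amounted to 1207% of its counts.

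**Figure D2:**
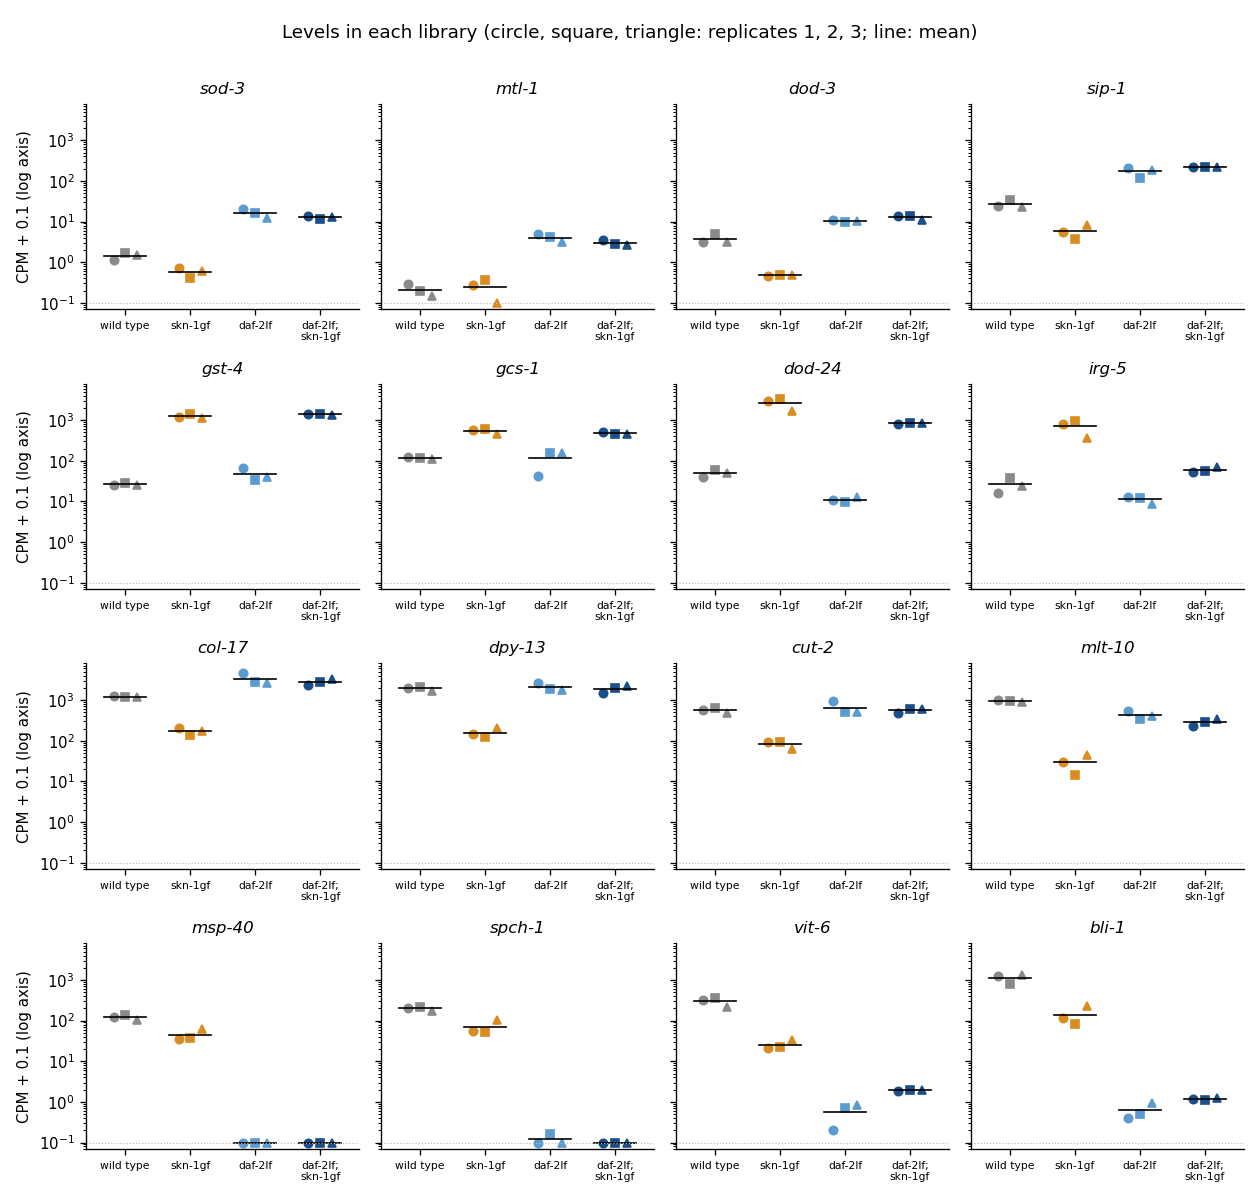
CPM + 0.1 on a log axis for 16 genes in each library of the 4 genotypes, with circle, square and triangle for replicates 1, 2 and 3 and a line at the mean. The top row holds DAF-16-activated genes, the second SKN-1 and pathogen response genes, the third cuticle and molting genes and the last sperm, yolk and adult collagen genes. sod-3 had 0.629, 0.319 and 0.497 CPM in skn-1gf and 13.6, 11.5 and 12.9 CPM in daf-2lf;skn-1gf, and msp-40 had 0 counts in every library with daf-2lf.

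Insulin-like peptides, the ligands of DAF-2, were mostly higher in the double mutant. Of the 40 listed genes 21 were tested, 12 rose and 1 fell, with a median log2 change of 1.48. The gene ins-35 had 11.6, 9.39 and 9.98 CPM in skn-1gf and 92.5, 82.5 and 61.8 CPM in the double mutant (log2 2.91, SE 0.17, adjusted p = 2.4e-05). The DAF-2 agonist gene ins-4 had 1.71, 1.98 and 2.40 CPM and 21.8, 17.3 and 19.5 CPM (log2 3.24, SE 0.19, adjusted p = 2.3e-05), and its relative ins-5 had 1.80, 2.04 and 3.19 CPM and 31.2, 24.1 and 28.1 CPM (log2 3.53, SE 0.23, adjusted p = 2.8e-05). In all 3 genes no double mutant library came near a skn-1gf library. The member that fell was ins-37, with 2.74, 2.36 and 4.43 CPM in skn-1gf and 0.227, 0.227 and 0.140 CPM in the double mutant (log2 -4.03, SE 0.42, adjusted p = 1.6e-04). Summed over the list, levels were 78.7, 86.5 and 79.3 CPM in skn-1gf and 238, 211 and 198 CPM in the double mutant. Without skn-1gf, 13 of 22 tested were higher and 2 lower in daf-2lf than in WT, against 19% and 22.7% of all genes. Without daf-2lf replicate 1 these counts were 12 and 2, against 27.9% and 34.5% of all genes. The test of the difference called 0 positive and 6 negative with and without that library, against backgrounds of 9.91% and 17.7% with it and 17.2% and 20.2% without it.

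Within the pathway itself the median log2 change was small, at 0.27. Of 17 tested core genes 8 rose (age-1, akt-1, akt-2, daf-16, daf-2, daf-28, ist-1 and pdk-1) and 2 fell (par-5 and sgk-1). These shares, 47.1% and 11.8%, compare with 17.3% and 24.2% of all genes. The fit to all 12 libraries gave 5 higher. The insulin receptor substrate gene ist-1 rose most, from 8.14, 4.21 and 7.29 CPM to 23.5, 23.1 and 21.4 CPM (log2 1.76, SE 0.23, adjusted p = 5.2e-04). The agonist gene daf-28 had 4.23, 2.43 and 8.74 CPM in skn-1gf and 15.8, 13.6 and 16.196 CPM in the double mutant (log2 1.52, SE 0.39, adjusted p = 0.0151). Its call was lost without skn-1gf replicate 1 (adjusted p = 0.0738). The fall of the 14-3-3 gene par-5 was -0.39 on the log2 scale and that of the kinase gene sgk-1 -0.45. Both calls were lost in the fit to all 12 libraries and without each double mutant library, and that of sgk-1 also without skn-1gf replicate 1.

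Other transcription factors known from lifespan studies also changed, with 10 of 19 tested higher and 2 lower. The largest rise was that of mdl-1, a Mad-like partner of MXL-1, from 27.02, 31.4 and 42.3 CPM to 110.2, 107 and 107 CPM (log2 1.66, SE 0.16, adjusted p = 1.3e-04). The nuclear receptor gene daf-12 rose from 69.1, 68.7 and 69.5 CPM to 190.2, 162 and 158 CPM (log2 1.28, SE 0.10, adjusted p = 5.1e-05). The hypoxia factor gene hif-1 rose (log2 0.32, SE 0.088, adjusted p = 0.0214). Its call was lost without each double mutant library, with replicate number as a block and after the length trend was removed, with adjusted p up to 0.294. The p53 homologue cep-1 fell from 20.5, 15.1 and 22.1 CPM to 12.01, 11.6 and 10.7 CPM (log2 -0.77, SE 0.17, adjusted p = 0.00674). PQM-1, a zinc finger factor that responds to insulin signalling opposite to DAF-16, was encoded by a gene at 42.5, 50.5 and 34.1 CPM in skn-1gf and 28.3, 29.6 and 33.4 CPM in the double mutant (log2 -0.49, SE 0.15, adjusted p = 0.0275). The pqm-1 call was lost without skn-1gf replicate 1 and without each double mutant library. It was also lost in the fit to all 12 libraries and with the replicate block, with adjusted p up to 0.121.

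Known SKN-1 targets did not move together. Of 22 tested, 4 rose, 6 fell and 12 were not called, shares close to those of all genes. The reporter gene gst-4, a glutathione S-transferase gene, had 1180.3, 1423 and 1102 CPM in skn-1gf and 1457, 1454 and 1369 CPM in the double mutant (log2 0.19, SE 0.11, adjusted p = 0.216). The gene gcs-1, which encodes the rate-limiting enzyme of glutathione synthesis, had 571, 612 and 456 CPM and 514, 454 and 448 CPM (log2 -0.23, SE 0.12, adjusted p = 0.176). Libraries of both genotypes overlapped for both genes, and WT worms had 24.9, 28.5 and 25.7 CPM of gst-4. Without skn-1gf replicate 2 the gst-4 difference was called, and without replicate 3 that of gcs-1. After the length trend was removed both were called, at log2 0.39 for gst-4 (adjusted p = 0.00264) and -0.37 for gcs-1 (adjusted p = 0.0475).

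Single members of that list and of the wider detoxification families did change. The transferase genes gst-12 and gst-14 rose, gst-12 from 55.2, 58.6 and 74.4 CPM to 134, 112 and 92.5 CPM (log2 0.82, SE 0.17, adjusted p = 0.00498) and gst-14 from 12.99, 13.7 and 16.53 CPM to 55.5, 47.2 and 42.1 CPM (log2 1.72, SE 0.15, adjusted p = 7.4e-05). The gene gst-30 fell from 77.0, 100.2 and 81.7 CPM to 47.3, 38.6 and 23.8 CPM (log2 -1.26, SE 0.23, adjusted p = 0.00317), and gst-13 from 472, 554 and 337 CPM to 250.2, 254 and 254 CPM (log2 -0.86, SE 0.16, adjusted p = 0.00360). None of these 4 genes had overlapping libraries. The number of SKN-1 targets lower fell from 6 to 3 without double mutant replicate 2 or 3 and to 2 in the fit to all 12 libraries. Over the whole family, 15 of 45 tested transferases rose and 6 fell, and 11 fell without skn-1gf replicate 3. The largest rise of the family was that of gst-29, from 1.75, 2.11 and 0.911 CPM to 5.09, 7.78 and 5.83 CPM (log2 1.97, SE 0.33, adjusted p = 0.00187). F56A4.3, annotated in RefSeq with a transferase N-terminal domain, was nearly silent in skn-1gf at 0.225, 0 and 0.124 CPM and had 19.3, 20.4 and 17.98 CPM in the double mutant (log2 7.15, SE 0.38, adjusted p = 1.8e-05). Reads shared between members of such families may be divided in ways not given in the sources used here.

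Cytochrome P450 genes, which oxidise foreign and endogenous compounds, were higher in 17 of 63 tested and lower in 5, a count of 1 to 3 without skn-1gf replicate 1 or any double mutant library and in the fit to all 12. The largest rises, of cyp-13A11 (log2 4.21, SE 0.66, adjusted p = 0.00129) and cyp-35B2 (ratio 20.9, 95% counting interval 5.49 to 178, adjusted p = 0.00350), were in genes under 3 CPM. UDP-glucuronosyltransferases, which attach sugars to small molecules, split into 13 higher and 15 lower of 62, and 8 were higher without skn-1gf replicate 1 or double mutant replicate 3. The gene ugt-18 rose from 2.83, 3.19 and 4.76 CPM to 16.46, 16.37 and 21.05 CPM (log2 2.29, SE 0.23, adjusted p = 1.5e-04), and ugt-53 fell from 8.99, 9.003 and 7.46 CPM to 1.86, 2.36 and 1.95 CPM (log2 -2.06, SE 0.19, adjusted p = 1.1e-04). The methionine sulfoxide reductase gene msra-1, which repairs oxidised methionine, had one of the 8 largest falls in CPM among called genes without overlap, from 1712, 2379 and 1192 CPM to 678, 796 and 857 CPM (log2 -1.20, SE 0.23, adjusted p = 0.00377). All its double mutant libraries lay below skn-1gf replicate 3, the lowest of that genotype.

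Antioxidant and metal genes moved singly. Of 10 superoxide dismutase, catalase and peroxiredoxin genes 3 rose (sod-3, ctl-1 and ctl-2) and 2 fell (prdx-3 and sod-2). The calls of prdx-3 and sod-2 were lost in the fit to all 12 libraries and without double mutant replicates 1 and 2. The catalase gene ctl-1 went from 16.05, 13.98 and 14.8 CPM to 44.4, 28.7 and 37.6 CPM (log2 1.28, SE 0.17, adjusted p = 5.4e-04). The peroxiredoxin gene prdx-2, a listed SKN-1 target, had 1468, 1927 and 1415 CPM and 1250.5, 1264 and 1309.98 CPM (log2 -0.35, SE 0.13, adjusted p = 0.0595). It was called lower with upper quartile scaling, with DESeq2, in the fit to 11 libraries and without skn-1gf replicate 3, with adjusted p down to 0.0194. The iron storage gene ftn-1 rose from 2.07, 1.405 and 2.11 CPM to 18.7, 18.5 and 12.2 CPM (log2 3.10, SE 0.25, adjusted p = 6.1e-05), while its relative ftn-2 fell from 397, 504 and 391 CPM to 308, 295 and 279 CPM (log2 -0.57, SE 0.11, adjusted p = 0.00499). The zinc transporter gene zipt-2.3 fell from 10.9, 16.03 and 10.4 CPM to 4.59, 3.50 and 3.42 CPM (log2 -1.71, SE 0.22, adjusted p = 5.2e-04). The libraries of the genotypes did not overlap for ctl-1, ftn-1, ftn-2 or zipt-2.3.

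Cuticle collagens rose, and they made up 7 of the 8 largest rises in CPM among called protein-coding genes without overlap between the genotypes' libraries. The cuticle is a collagen matrix that the epidermis makes anew at each molt, and dpy, rol, sqt, bli and lon collagens are those whose mutants have altered body shape. Of 20 such genes tested, 16 rose and 3 fell, with a median log2 change of 1.52. Their summed level was 2767, 3012 and 3698 CPM in skn-1gf and 12702, 15344 and 16538 CPM in the double mutant. The gene dpy-13 (plus strand of chromosome IV from 4235614 to 4236710, gene identifier 177187) had 146, 123 and 208 CPM in skn-1gf and 1504, 1931 and 2162 CPM in the double mutant (log2 3.53, SE 0.24, adjusted p = 3.0e-05). The gene sqt-3 had 283, 314 and 419 CPM and 2009.6, 2339 and 2639 CPM (log2 2.76, SE 0.18, adjusted p = 2.9e-05). WT worms had 1966, 2143 and 1707 CPM of dpy-13, so the skn-1gf libraries stood below those of the other genotypes.

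Among the 124 tested col genes 64 rose and 13 fell, and 22 fell without skn-1gf replicate 3 and 21 with no filter on low counts. Under that limit the 8 largest rises in CPM were those of col-17, col-41, col-73, dpy-4, dpy-5, dpy-13, sqt-3 and the aspartyl protease gene asp-3. The gene col-17 had 202, 139 and 178 CPM in skn-1gf and 2294, 2833 and 3279 CPM in the double mutant (log2 3.995, SE 0.20, adjusted p = 1.7e-05). For col-41 the levels were 76.5, 59.3 and 54.7 CPM and 1101, 1435 and 1696 CPM (log2 4.45, SE 0.21, adjusted p = 1.7e-05). Both lay in skn-1gf far below every double mutant library.

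Several collagens and cuticlins that were silent in skn-1gf were detected in the double mutant. Every skn-1gf library had 0 counts of col-2, whose double mutant libraries had 16.19, 10.4 and 11.2 CPM, at least 65.8-fold higher (adjusted p = 5.5e-05). The gene col-102 went from 0 counts to 14.1, 7.68 and 9.91 CPM, at least 55.1-fold higher (adjusted p = 9.3e-05). The cuticlin gene cut-1, which encodes an insoluble cuticle protein, went from 0 counts to 21.5, 10.6 and 13.6 CPM, at least 79.4-fold higher (adjusted p = 1.0e-04). The collagen gene col-36 had 1 count in skn-1gf replicate 3 alone and 73.5, 44.2 and 51.2 CPM in the double mutant (ratio 3463, lower limit of its 95% counting interval 621, adjusted p = 9.8e-06). In daf-2lf worms col-36 had 11.3, 16.3 and 20.5 CPM, and in WT worms 0, 0.0963 and 0 CPM. Double mutant replicate 1 was the highest of its genotype for all 4 genes. Over the family 15 of 30 tested cuticlins rose and 3 fell. The gene cut-2 rose from 91.4, 93.4 and 61.7 CPM to 482, 611 and 592 CPM (log2 2.75, SE 0.18, adjusted p = 2.8e-05).

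A smaller set of collagens fell. The gene bli-1, which encodes a strut collagen of the adult cuticle, had 118, 81.8 and 223 CPM in skn-1gf and 1.09, 1.05 and 1.15 CPM in the double mutant (log2 -7.02, SE 0.45, adjusted p = 2.7e-05). The gene bli-6 fell from 46.5, 48.7 and 86.3 CPM to 1.32, 1.96 and 1.43 CPM (log2 -5.29, SE 0.32, adjusted p = 2.4e-05) and col-175 from 18.7, 17.05 and 35.1 CPM to 0.0910, 0.227 and 0.698 CPM (log2 -6.03, SE 0.54, adjusted p = 9.2e-05). All 3 were higher in WT worms than in skn-1gf, with 1253, 799.8 and 1339 CPM for bli-1, and near 0 in daf-2lf worms, with 0.301, 0.418 and 0.842 CPM. Outside the body shape list, the collagen gene rol-1 had 8.14, 8.36 and 22.4 CPM in skn-1gf and 1.64, 3.09 and 5.31 CPM in the double mutant (log2 -1.97, SE 0.52, adjusted p = 0.0170). The rol-1 call was lost without double mutant replicate 1 or 2, with adjusted p up to 0.0601.

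Genes that act with the cuticle at molts rose with the collagens. The hedgehog-related and patched-related genes, a family expanded in nematodes that is expressed mainly in epidermal cells, had 50 of 72 tested members higher and 2 lower, with a median log2 change of 1.66. The gene qua-1 had 132, 103 and 169 CPM in skn-1gf and 591, 667 and 769 CPM in the double mutant (log2 2.30, SE 0.20, adjusted p = 7.6e-05). The ground-like genes were among the largest rises of all. The gene grl-23 had 0 counts in skn-1gf and, with daf-2lf added, 6.37, 4.96 and 6.004 CPM, at least 30.2-fold higher (adjusted p = 6.9e-05), and grl-25 had 1 count in skn-1gf and 18.9, 12.1 and 16.96 CPM (ratio 998, lower limit of its 95% counting interval 179, adjusted p = 1.7e-05). The 2 that fell were grd-3 (log2 -1.01, SE 0.20, adjusted p = 0.00473) and ptr-8 (log2 -0.78, SE 0.21, adjusted p = 0.0183). The grd-3 call was lost in the fit to all 12 libraries. That of ptr-8 was lost in the same fit and without skn-1gf replicate 1 or double mutant replicate 2 or 3.

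Astacin metalloproteases, secreted enzymes some of which digest the old cuticle, rose in 20 of 28 tested and fell in 1. The gene nas-37, which acts in shedding the old cuticle, had 87.1, 82.8 and 101 CPM in skn-1gf and 307, 321 and 369.8 CPM in the double mutant (log2 1.86, SE 0.12, adjusted p = 2.8e-05). The gene nas-14 had 1.53, 0.639 and 1.57 CPM and 15.9, 21.4 and 20.6 CPM (log2 3.87, SE 0.30, adjusted p = 4.8e-05), and nas-15 had 3.78, 0.255 and 6.09 CPM and 58.4, 68.6 and 66.2 CPM (log2 4.15, SE 0.59, adjusted p = 8.4e-04). Replicate 2 was the lowest skn-1gf library for all 3. Of 16 molting genes 12 rose and 1 fell, and 7 rose in the fit to all 12 libraries. The gene mlt-10, which peaks before each molt, had 29.1, 14.2 and 43.9 CPM in skn-1gf and 224, 288 and 339 CPM in the double mutant (log2 3.25, SE 0.38, adjusted p = 3.1e-04). The zona pellucida domain gene noah-1 rose (log2 0.67, SE 0.12, adjusted p = 0.00304) and the fibrillin-like gene fbn-1 fell (log2 -0.64, SE 0.12, adjusted p = 0.00334). Both calls were lost in the fits to all 12 libraries and to 11 of them.

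Heterochronic genes, which set the order of stages in development, were higher in 10 of 15 tested and lower in 2. The higher genes were ain-1, alg-1, alg-2, daf-12, hbl-1, kin-20, lin-29, lin-41, lin-42 and lin-66. The period homologue lin-42, whose level cycles with the molts, had 136, 157 and 236 CPM in skn-1gf and 664, 668 and 708 CPM in the double mutant (log2 1.92, SE 0.20, adjusted p = 1.7e-04). The RNA-binding gene lin-41, which is turned off as animals become adult, had 44.1, 35.3 and 51.4 CPM and 257, 197 and 180.4 CPM (log2 2.25, SE 0.18, adjusted p = 6.5e-05). For both, the double mutant libraries lay above all skn-1gf ones. The cofactor gene mab-10, which acts with lin-29 in the change to adulthood, fell from 94.4, 92.2 and 131 CPM to 46.3, 42.4 and 44.7 CPM (log2 -1.28, SE 0.15, adjusted p = 3.2e-04). The gene lin-28 fell (log2 -0.59, SE 0.13, adjusted p = 0.00701). Overlapping genes amounted to 120.1% of the mab-10 counts and 98.5% of the lin-28 counts.

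**Figure D3:**
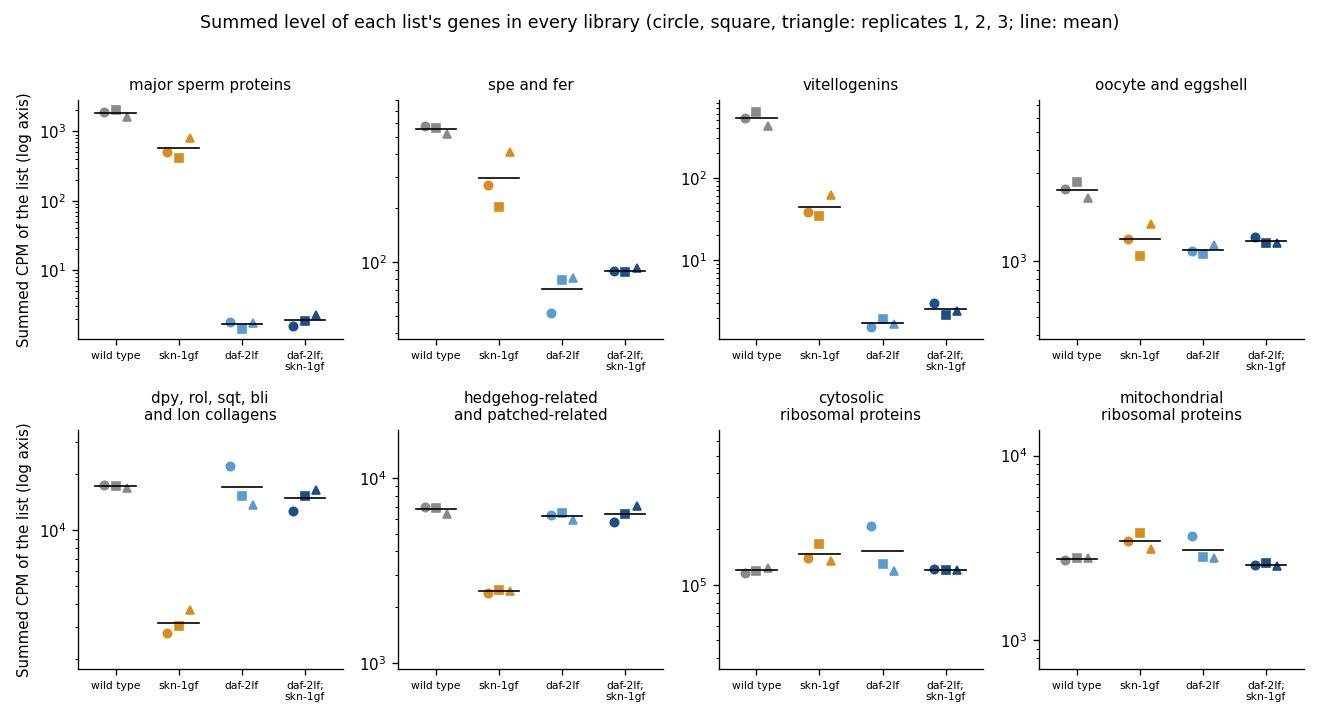
Summed CPM on a log axis of 8 gene lists in each library of the 4 genotypes, with circle, square and triangle for replicates 1, 2 and 3 and a line at the mean. Major sperm proteins summed to 497, 408 and 794 CPM in skn-1gf and 1.59, 1.86 and 2.23 CPM in daf-2lf;skn-1gf. Body shape collagens were lowest in skn-1gf, and cytosolic ribosomal proteins differed little.

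Major sperm proteins were nearly absent from the double mutant, and other sperm lists were lower but still detected. Major sperm proteins form the cytoskeleton of the crawling nematode sperm and are made as sperm develop, which in hermaphrodites comes before the switch to oocytes. All 30 tested of the 35 listed fell, and 24 had 0 counts in every double mutant library. With those at their bound the median log2 change was -6.99. The list summed to 497, 408 and 794 CPM in skn-1gf and 1.59, 1.86 and 2.23 CPM in the double mutant. It summed to 1889, 2019 and 1612 CPM in WT and 1.81, 1.43 and 1.74 CPM in daf-2lf worms. Thus the skn-1gf libraries stood below those of WT and far above all 6 libraries with daf-2lf. The member msp-40 (plus strand of chromosome II from 4825414 to 4825797, gene identifier 173830), had 34.3, 37.5 and 60.7 CPM in skn-1gf and 0 counts in the double mutant, at least 324-fold lower (adjusted p = 4.2e-05). These genes are near copies of each other, so the counts of single members are uncertain while the sum is less so.

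Of 23 tested spe and fer genes, found through mutants with defective sperm, 21 fell and 0 rose, with a median log2 change of -3.68, or -3.54 with the 5 genes at 0 in the double mutant at their bound. The list summed to 271, 203 and 411 CPM in skn-1gf and 88.9, 87.6 and 92.1 CPM in the double mutant. The sperm chromatin gene spch-1 had 56.3, 52.0 and 103 CPM in skn-1gf and 0 counts in the double mutant, at least 516-fold lower (adjusted p = 6.0e-05). The nematode-specific peptide gene nsph-3.2 had 33.8, 27.97 and 72.5 CPM and 0 counts, at least 328-fold lower (adjusted p = 1.7e-04). The kinase gene spe-8, which acts in sperm activation, had 4.63, 1.79 and 5.51 CPM and 0 counts, at least 29.1-fold lower (adjusted p = 7.5e-04). In each case skn-1gf replicate 3 was the highest and replicate 2 the lowest of its genotype. Of 78 tested small sperm-specific and nematode-specific peptide genes 50 fell and 2 rose, with 1 higher without skn-1gf replicate 1 or double mutant replicate 3 and 4 without skn-1gf replicate 3. That list summed to 3222, 4155 and 2819.9 CPM and 2252, 2395 and 2715 CPM, and 12 of its genes had 0 counts in the double mutant. The germline Argonaute gene alg-4, which acts in spermatogenesis, had 56.9, 23.8 and 101 CPM in skn-1gf and 1 count in all double mutant libraries together (ratio 4759.7, lower limit of its 95% counting interval 854, adjusted p = 6.9e-05). The Argonaute gene wago-10 fell from 24.1, 12.1 and 56.2 CPM to 0.0455, 0.0909 and 0.105 CPM (log2 -8.48, SE 0.85, adjusted p = 1.4e-04).

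In all, 436 called genes had 0 counts in every double mutant library, against 17 with 0 counts in every skn-1gf library. These were all the tested genes of each kind. Such genes could pass the filter only through their counts in the other genotype, so their calls and smallest bounds partly follow from the filter. Their levels in skn-1gf put them at least 3.66-fold to 516-fold lower in the double mutant, with a median bound of 26.9-fold. Of the 436, 324 also had 0 counts in every daf-2lf library and 100 more had 1 to 3 counts there. In 435 of them the mean was higher in WT than in skn-1gf worms. Only 43 carry the name of a sperm gene family, and 164 lie on chromosome IV against 3 on X. Members of quite different families are among them. They include the cytochrome c gene cyc-2.2 (at least 131-fold lower, adjusted p = 3.0e-05), the phosphoenolpyruvate carboxykinase gene pck-3 (at least 100.4-fold lower, adjusted p = 1.0e-04) and the histone gene his-70 (at least 87.8-fold lower, adjusted p = 4.8e-05). They also include the C-type lectin gene clec-123 (at least 184-fold lower, adjusted p = 9.0e-05), the acyl-CoA synthetase gene acs-18 (at least 82.8-fold lower, adjusted p = 1.5e-04) and the F-box gene fbxa-202 (at least 42.0-fold lower, adjusted p = 2.3e-04). Overlapping genes amounted to 101% of the cyc-2.2 counts. The role of sperm content in any of these falls was not tested.

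Yolk genes fell to near 0. Vitellogenins are yolk proteins made by the intestine of adult hermaphrodites, and 3 of the 6 were tested, all lower. They share much of their sequence, and the whole family summed to 38.5, 34.4 and 61.0 CPM in skn-1gf and 3.05, 2.18 and 2.41 CPM in the double mutant, against 532, 626 and 421 CPM in WT. The gene vit-6 had 20.5, 22.5 and 33.3 CPM in skn-1gf and 1.73, 1.82 and 1.88 CPM in the double mutant (log2 -3.83, SE 0.23, adjusted p = 2.4e-05). The gene vit-2 had 4.90, 4.09 and 6.75 CPM and 0.136, 0 and 0.0349 CPM (log2 -6.46, SE 0.58, adjusted p = 8.4e-05). Of the adult hermaphrodite markers 4 were tested and all 4 were lower. They were vit-1, vit-2, vit-6 and fbn-1. The last is also in the molting list, and its call was lost in the fits to 12 and 11 libraries. The adult collagen gene col-19 did not pass the filter on low counts. The summed level of these markers was 652, 662 and 767 CPM in skn-1gf and 487, 403 and 388 CPM in the double mutant. That sum is mostly fbn-1, at 614, 627 and 706 CPM and 483, 399.9 and 386 CPM. The part of stage at harvest in these differences was not tested.

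Oocyte and other germline genes showed no such fall. The 10 oocyte markers summed to 86.5, 40.8 and 164 CPM in skn-1gf and 94.6, 88.99 and 83.4 CPM in the double mutant, and edgeR called 0 of 9 tested, of which 2 had an unadjusted p under 0.05. DESeq2 called 2 lower. Without skn-1gf replicate 2 edgeR called 4 lower and without replicate 3 it called 2 higher. WT worms had 455, 511 and 380.2 CPM. Of 29 tested oocyte and eggshell genes 3 rose and 1 fell. Without skn-1gf replicate 2, which was the lowest of its genotype for the oocyte markers, 13 fell, and without replicate 3, the highest, 5 rose. With no filter 7 fell, with DESeq2 5 and in the fits to 12 and 11 libraries 4 and 6. Meiotic chromosome genes were lower in 6 of 37 and higher in 0, with 20 lower without skn-1gf replicate 2 and 5 higher without replicate 3. The germline helicase gene glh-1, a P granule component, had 365, 209 and 536 CPM in skn-1gf and 319, 297 and 298 CPM in the double mutant (log2 -0.31, SE 0.29, adjusted p = 0.429). Its double mutant libraries lay inside the range of the skn-1gf ones. Of 24 germline stem cell and P granule genes 1 rose and 0 fell, 8 fell without skn-1gf replicate 2 and 5 rose without replicate 3. With no filter or in the fit to 11 libraries 3 fell. Of 16 early embryo markers 6 had 0 counts in these libraries and 1 was tested.

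Genes of DNA replication and mitosis leaned upward. Of 49 tested 14 rose and 1 fell, but 4 rose without skn-1gf replicate 1, 8 without double mutant replicate 3 and 32 without skn-1gf replicate 3. The large subunit gene of ribonucleotide reductase, rnr-1, had 60.9, 43.1 and 78.6 CPM in skn-1gf and 184, 210.5 and 218 CPM in the double mutant (log2 1.72, SE 0.21, adjusted p = 3.7e-04). The small subunit gene rnr-2 had 49.3, 46.5 and 51.04 CPM and 94.0, 106 and 127 CPM (log2 1.13, SE 0.12, adjusted p = 2.3e-04). All double mutant libraries exceeded all skn-1gf ones for both. Without skn-1gf, members of these lists were lower in daf-2lf worms, namely 29 of 32 tested oocyte genes, 33 of 37 meiotic genes and 15 of 49 replication genes. The test of the difference called 26, 18 and 21 of them positive and 0 negative, against 9.91% of all genes positive. Without daf-2lf replicate 1, 30, 37 and 38 were lower and 27, 30 and 42 positive, with 1 oocyte gene negative. Over the other scalings and models it called 24 to 29 oocyte genes (and 0 or 1 negative), 18 to 28 meiotic genes and 21 to 33 replication genes positive.

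Ribosomal protein and respiratory chain genes were slightly lower, with median changes well under 2-fold. Of 81 cytosolic ribosomal protein genes 51 fell and 0 rose, with a median log2 change of -0.39. Of 67 mitochondrial ribosomal protein genes 56 fell and 0 rose, with a median of -0.47. Of 51 genes of the respiratory chain and ATP synthase 23 fell and 0 rose. Aminoacyl-tRNA synthetases, which load tRNAs for translation, were lower in 8 of 32 and higher in 1, a share lower of 25% that is close to the 24.2% of all genes. Their lower count was 1 in the fit to all 12 libraries, 3 to 4 without skn-1gf replicate 1 or any double mutant library, 14 with upper quartile scaling and 19 after the length trend was removed. Their higher count was 2 without skn-1gf replicate 3 and 3 in the fit to 11 libraries. The gene rpl-3 had 6329.9, 7371 and 6100.2 CPM in skn-1gf and 5896, 5941 and 6171 CPM in the double mutant and was not called (log2 -0.16, SE 0.11, adjusted p = 0.293). The mitochondrial gene mrpl-36 fell from 21.6, 23.5 and 18.1 CPM to 11.2, 9.87 and 10.1 CPM (log2 -1.04, SE 0.14, adjusted p = 5.4e-04). Double mutant libraries were close together, and skn-1gf replicate 2 was the highest of its genotype for both.

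Shares of lower genes differed with gene length over all tested genes. They were 45.8% under 500 bases and 33.7% from 500 to 1000 bases, against 24.2% of all. Median lengths were 520 bases for cytosolic and 747 for mitochondrial ribosomal genes, and 919 for respiratory chain and ATP synthase genes. After a trend with length was removed from each library, 19 cytosolic and 40 mitochondrial ribosomal genes were lower, and 4 cytosolic ones were higher. The cytosolic count was also 15 in the fit to all 12 libraries and 22 to 23 without any 1 of the double mutant libraries. The mitochondrial count was 32 in the fit to all 12 libraries and 33 and 37 without double mutant replicates 3 and 1. The respiratory count was 10 in that fit and 14 to 15 without any 1 of the double mutants. The part of length in the ribosomal and respiratory falls was not tested further. The largest change among cytosolic ribosomal genes was the fall of rpl-42, at log2 -4.66. It kept its call under all 15 alternatives, at log2 -5.70 to -4.15. Another with a larger change was rpl-11.1, a paralogue of rpl-11.2, which fell from 519, 506 and 676 CPM to 278, 279 and 279 CPM (log2 -1.05, SE 0.13, adjusted p = 4.1e-04).

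Fat and carbohydrate genes changed in both directions. Of 21 tested fatty acid synthesis and desaturase genes 11 fell and 4 rose, 2 of them after the length trend was removed. The palmitoyl-CoA desaturase gene fat-5 rose from 15.1, 16.9 and 19.6 CPM to 81.5, 81.8 and 80.7 CPM (log2 2.22, SE 0.11, adjusted p = 1.7e-05), while fat-7, described above, fell. The elongase gene elo-8 fell from 4.41, 4.85 and 6.13 CPM to 0.0910, 0.0909 and 0 CPM (log2 -6.41, SE 0.53, adjusted p = 6.2e-05). Of 9 lipid-binding protein genes 6 fell and 0 rose, a count of 3 without skn-1gf replicate 1 or double mutant replicate 1 or 3, and 2 in the fit to all 12 libraries and after the length trend was removed. The secreted binding protein gene far-2 was among the 8 largest falls in CPM of called genes without overlap, from 3389, 4476 and 2559.9 CPM to 1765, 1910.3 and 2022 CPM (log2 -0.89, SE 0.19, adjusted p = 0.00621). In beta-oxidation and fatty acid activation 20 of 61 rose and 16 fell. The acyl-CoA dehydrogenase gene acdh-6 rose from 3.78, 2.36 and 1.57 CPM to 21.6, 31.6 and 35.01 CPM (log2 3.49, SE 0.32, adjusted p = 1.0e-04), and the synthetase gene acs-20, which acts in the cuticle barrier, from 45.3, 47.5 and 44.99 CPM to 159, 215 and 259.8 CPM (log2 2.18, SE 0.17, adjusted p = 5.6e-05).

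In the glyoxylate cycle, gluconeogenesis and trehalose list 4 of 20 rose and 1 fell. These shares, 20% and 5%, compare with 17.3% and 24.2% of all genes. Without skn-1gf replicate 3 and after the length trend was removed 3 fell. The bifunctional glyoxylate gene icl-1 rose from 391, 418 and 392 CPM to 735, 790.3 and 909 CPM (log2 0.999, SE 0.11, adjusted p = 1.9e-04). The phosphoenolpyruvate carboxykinase gene pck-1, which opens gluconeogenesis, rose from 143, 161 and 172 CPM to 302, 283 and 298 CPM (log2 0.87, SE 0.10, adjusted p = 2.6e-04). The gene pck-2 had 1412, 1645 and 1245 CPM and 1292, 1313 and 1292 CPM and was not called (log2 -0.16, SE 0.11, adjusted p = 0.288). Among 9 lipase genes 1 rose and 1 fell, with 4 higher without skn-1gf replicate 2, 3 with limma-voom and after the length trend was removed, and 2 with DESeq2 and with no filter. The lipase gene lipl-1, known to act in lysosomal fat breakdown, rose from 4.23, 5.56 and 3.44 CPM to 15.6, 14.7 and 19.1 CPM (log2 1.89, SE 0.20, adjusted p = 2.1e-04). Its relative lipl-5 fell from 181, 199 and 167 CPM to 112, 118.6 and 140.3 CPM (log2 -0.58, SE 0.11, adjusted p = 0.00423), a call lost in the fit to all 12 libraries. No double mutant library overlapped skn-1gf for icl-1, pck-1 or lipl-1.

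Protein quality control lists differed in their shares of called genes. Of 33 proteasome subunit genes 8 fell and 0 rose. The share lower was 24.2%, as over all tested genes, of which 17.3% were higher. The lower count was 1 to 3 without skn-1gf replicate 1 or any double mutant library and after the length trend was removed. There were 13 lower with upper quartile scaling, 5 with no filter and 1 in the fit to all 12 libraries. Without skn-1gf replicate 3, 3 were higher. The exception in size was rpn-6.2, a paralogue of a lid subunit, from 20.1, 14.5 and 27.2 CPM to 6.69, 7.14 and 5.90 CPM (log2 -1.68, SE 0.24, adjusted p = 7.9e-04). Of 11 HSP70 and HSP90 genes 5 fell (45.5%) and 0 rose, against 24.2% and 17.3% of all genes. In this list 2 to 3 fell without skn-1gf replicate 1 or any double mutant library and in the fit to all 12. Without skn-1gf replicate 3, 1 was higher. Of 7 tested small heat shock protein genes 3 fell (42.9%) and 1 rose (14.3%), with 2 higher without skn-1gf replicate 3. The endoplasmic reticulum chaperone gene hsp-4, a reporter of the unfolded protein response, fell from 384, 325 and 464 CPM to 181, 178 and 185 CPM (log2 -1.13, SE 0.14, adjusted p = 3.8e-04). Of 25 autophagy genes 5 rose (atg-2, atg-9, lgg-2, sqst-1 and unc-51) and 0 fell. The share higher, 20%, is close to the 17.3% of all genes. In the fit to 11 libraries 8 rose. Without skn-1gf replicate 3, 1 fell. The lipid transfer gene atg-2 rose from 36.8, 33.01 and 35.6 CPM to 67.4, 70.9 and 77.0 CPM (log2 1.01, SE 0.10, adjusted p = 1.1e-04). For hsp-4 and atg-2 the libraries of the genotypes did not overlap.

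Pathogen response genes changed in both directions. Of 7 tested irg genes, named for their induction by infection, 1 rose and 1 fell, while 2 rose without skn-1gf replicate 2 and 2 fell without replicate 3. The gene irg-5 fell from 827, 945 and 356 CPM to 53.2, 57.2 and 69.3 CPM (log2 -3.58, SE 0.35, adjusted p = 1.2e-04), against 16.25, 38.8 and 24.3 CPM in WT. The highest of its double mutant libraries was below the lowest of skn-1gf. The gene irg-4 rose (log2 0.64, SE 0.18, adjusted p = 0.0213), a call lost without double mutant replicate 3. Lysozyme and saposin-like genes, which attack bacterial walls and membranes, were higher in 11 of 30 and lower in 6, with 11 lower without skn-1gf replicate 3. The invertebrate lysozyme gene ilys-5 fell from 372, 468 and 350.3 CPM to 37.6, 41.1 and 19.3 CPM (log2 -3.63, SE 0.28, adjusted p = 5.3e-05). The pore-forming peptide gene spp-12 rose from 0.719, 0.511 and 0.497 CPM to 5.41, 9.003 and 3.28 CPM (log2 3.31, SE 0.44, adjusted p = 5.9e-04). C-type lectins, a large family with many infection-responsive members, were higher in 23 of 113 tested and lower in 38. These shares, 20.4% and 33.6%, compare with 17.3% and 24.2% of all genes. Of 14 epidermal antimicrobial peptide genes 4 rose and 4 fell, 2 of the latter after the length trend was removed.

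Steroid hormone genes rose in part. DAF-9 makes dafachronic acids, the ligands of the nuclear receptor DAF-12. With its ligand bound, DAF-12 holds animals on the reproductive path and away from dauer. The gene daf-9 had 14.2, 16.3 and 12.8 CPM in skn-1gf and 36.9, 33.3 and 40.04 CPM in the double mutant (log2 1.33, SE 0.13, adjusted p = 1.1e-04), and daf-12 rose as given above. The gene daf-36, which encodes the first enzyme of the same pathway, fell from 33.1, 30.8 and 29.2 CPM to 15.01, 12.4 and 13.4 CPM (log2 -1.21, SE 0.12, adjusted p = 1.2e-04). For these genes no libraries of the genotypes overlapped. Of 11 tested members of the list 5 rose and 2 fell (daf-36 and ncr-2), with 3 higher in the fit to all 12 libraries and after the length trend was removed. Among 199 tested nuclear hormone receptors 32 rose and 12 fell. The higher count was 21 and 20 without skn-1gf replicate 1 and double mutant replicate 1. The lower count was 33 without skn-1gf replicate 3, 6 without double mutant replicate 1 and 19 in the fit to 11 libraries. The receptor gene nhr-234 fell from 12.5, 18.2 and 15.1 CPM to 0.409, 0.637 and 0.279 CPM (log2 -5.14, SE 0.30, adjusted p = 2.3e-05), and nhr-155 rose from 0.809, 0.511 and 0.497 CPM to 6.87, 5.32 and 4.57 CPM (log2 3.16, SE 0.31, adjusted p = 1.2e-04).

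Counts of higher genes differed between the neuronal and muscle lists. Of 25 synaptic vesicle and release genes 12 rose and 0 fell, with a median log2 change of 0.39, 6 higher in the fit to all 12 libraries and 1 lower without skn-1gf replicate 3. The neuropeptide processing gene egl-3 had 160.3, 165 and 154 CPM in skn-1gf and 249, 246 and 241 CPM in the double mutant (log2 0.60, SE 0.079, adjusted p = 5.8e-04). Of 102 neuropeptide genes, a list that shares nlp genes with that of epidermal antimicrobial peptides, 23 rose and 6 fell. The share higher, 22.5%, compares with 17.3% of all genes. Without skn-1gf replicate 1 there were 8 higher, and without double mutant replicates 1, 2 and 3 there were 10, 7 and 13. In the fit to all 12 libraries 13 were higher, and after the length trend was removed 38 were higher and 3 lower. Without skn-1gf replicate 3, 21 were lower. The 11 neuron markers summed to 626, 707 and 583 CPM in skn-1gf and 796, 796 and 785 CPM in the double mutant, and 3 of 11 were higher (1 in the fit to all 12 libraries, 5 without skn-1gf replicate 2 or after the length trend was removed). The body wall muscle myosin gene myo-3 rose from 308, 242 and 353 CPM to 632, 598 and 602 CPM (log2 0.998, SE 0.14, adjusted p = 9.1e-04), one of 2 higher among 30 muscle filament genes. There were 11 higher and 5 lower without skn-1gf replicate 3, 4 higher without skn-1gf replicate 2, and 1 higher without skn-1gf replicate 1, without double mutant replicate 1 or 2 and after the length trend was removed. The major myosin gene unc-54 had 2986, 2442 and 5470.2 CPM and 6395, 5749.8 and 5003 CPM and was not called (log2 0.63, SE 0.29, adjusted p = 0.112), except without skn-1gf replicate 3. Its libraries overlapped.

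Markers of the main tissues gave no uniform shift. Of 11 intestine markers 2 rose and 4 fell, with 0 or 1 lower without skn-1gf replicate 1 or any double mutant library and in the fit to all 12. Their sum was 10924, 13042 and 10766 CPM in skn-1gf and 11692, 11435 and 13314 CPM in the double mutant. Of 11 tested hypodermis markers 5 rose (ajm-1, dpy-7, lin-26, rol-6 and wrt-2) and 2 fell, 3 of them higher in the fit to all 12 libraries, with sums of 2615, 3066 and 2671 CPM and 3409.5, 3288 and 3236 CPM. Of 9 pharynx markers 3 rose and 0 fell, and 7 rose without skn-1gf replicate 3. Their sums were 265, 94.3 and 619 CPM and 729, 497 and 438 CPM, with skn-1gf replicate 2 the lowest. The part of tissue content in the gene changes above was not tested.

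The same loss of daf-2 function was then measured without skn-1gf, in daf-2lf against WT, with the other 6 libraries. In it 6217 of 14910 tested genes (41.7%) were called, 2833 higher and 3384 lower, and 9508 of 15223 (62.5%) without daf-2lf replicate 1. Of 14430 genes tested in both backgrounds, 2450 were called in the same direction, 722 higher and 1728 lower. They were 40.7% of the calls with skn-1gf and 41.9% of those without it. A further 490 were called in opposite directions. Without daf-2lf replicate 1, 3260 were called in the same direction and 788 in opposite ones. Over the 13842 genes with counts in all genotypes, the log2 changes correlated across genes at Pearson's r = 0.739 and Spearman's rho = 0.297. The comparisons share no library, and genes are not independent replicates.

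**Figure D4:**
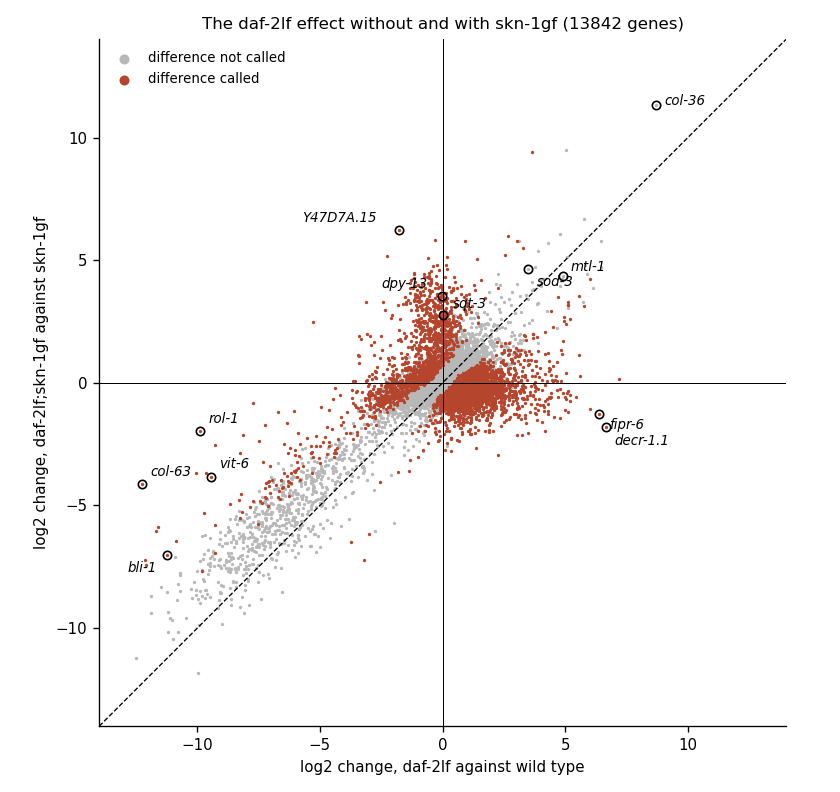
Log2 change of 13842 genes in daf-2lf against wild type (horizontal) and in daf-2lf;skn-1gf against skn-1gf (vertical), with the dashed line where both are equal and red points where the test of the difference was called. Genes at the lower left, such as vit-6 and bli-1, fell in both backgrounds. Collagens such as dpy-13 and sqt-3 lie above 0 on the vertical axis and near 0 on the horizontal one.

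The difference between the daf-2lf effects was tested directly over all 12 libraries. It was called for 4308 of 15575 genes (27.7%), 1544 positive (9.91%) and 2764 negative (17.7%). This split depended on scaling, since 35.8% of calls were positive with TMM, 48.3% with RLE scaling and 50.6% with DESeq2. RLE scaling moved the median difference of all genes from -0.046 to 0.109 log2. Without daf-2lf replicate 1 there were 5921 calls (37.4%), 2718 positive and 3203 negative, and without WT replicate 1 there were 2786.

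Cuticle lists differed from each other in this test. For body shape collagens 13 of 20 were positive and 0 negative under each scaling and model tried, and the same counts were called without daf-2lf replicate 1. In daf-2lf against WT 6 of the 20 rose and 5 fell, and 9 fell without daf-2lf replicate 1. For dpy-13 the WT libraries had 1966, 2143 and 1707 CPM and the daf-2lf libraries 2615, 1843 and 1799.9 CPM (log2 -0.038, SE 0.19, adjusted p = 0.888), and the difference was log2 3.45 (adjusted p = 4.4e-05; 3.73 without daf-2lf replicate 1). Hedgehog-related genes had 35 of 73 positive and 17 negative, and 34 to 37 and 16 to 17 over the other scalings and models, and 38 and 18 without daf-2lf replicate 1. The col collagens went both ways, with 37 of 129 positive and 37 negative, or 44 and 35 without that library. Astacins had 10 positive and 8 negative and cuticlins 10 and 7, or 13 and 10 and 14 and 8 without it. The cathepsin gene cpz-1, which acts in molting, gives an example outside the collagens. Its levels were 808, 1050.3 and 710.2 CPM in WT, with daf-2lf alone 822, 622 and 513 CPM, with skn-1gf alone 121, 144 and 133 CPM and with both 424, 524 and 599.8 CPM, a difference of log2 2.35 (adjusted p = 2.0e-04; 2.64 without daf-2lf replicate 1).

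Negative differences outnumbered positive ones for transferases, nuclear receptors and neuropeptides, but not clearly for cytochrome P450 genes. They did so over all genes too, with 17.7% negative and 9.91% positive, or 20.2% and 17.2% without daf-2lf replicate 1. Glutathione S-transferases had 0 of 45 positive and 23 negative, and 16 to 23 negative with 0 or 1 positive over the other scalings and models. Without daf-2lf replicate 1, 0 were positive and 21 negative. In daf-2lf against WT 23 of 40 tested transferases rose and 0 fell, and 24 and 1 without that library. The gene gst-14 rose from 0.0756, 0.193 and 0.277 CPM in WT to 7.02, 4.54 and 6.56 CPM in daf-2lf (log2 4.91, SE 0.42, adjusted p = 1.1e-04), and its rise with skn-1gf, given above, was smaller, with a difference of log2 -3.32 (adjusted p = 2.3e-04; -3.11 without daf-2lf replicate 1). SKN-1 targets had 9 of 22 negative and 0 positive, and 11 and 0 without that library. UDP-glucuronosyltransferases had 22 of 62 negative and 5 positive, with 13 to 22 and 5 to 8 over the other scalings and models and 29 and 8 without that library. Cytochrome P450 genes had 13 negative and 11 positive of 66, with 9 to 13 and 10 to 14 over the other scalings and models and 18 and 12 without it. Nuclear hormone receptors had 52 negative and 3 positive, and neuropeptides 49 negative and 2 positive. The negative counts ran down to 31 and 32 over the other scalings and models, and were 95 and 44 without daf-2lf replicate 1. For daf-9 the change was log2 2.74, SE 0.23, adjusted p = 1.1e-04 without skn-1gf, and the difference was log2 -1.54 (adjusted p = 0.00142; -1.40 without daf-2lf replicate 1).

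Calls were unevenly spread over the genome and over gene lengths. On chromosome X 27.04% of 2086 tested genes were higher and 10.98% lower, whereas on each of the other 5 nuclear chromosomes 13.2% to 18.8% were higher and 23.3% to 29.9% lower. Sperm-expressed genes are known to be rare on X, and their part in these shares was not tested. Of the 14 mitochondrial genome genes tested 9 were lower and 1 higher, among them COX1, at 3798, 4042 and 3136 CPM in skn-1gf and 2719, 2754 and 2529.6 CPM in the double mutant (log2 -0.48, SE 0.12, adjusted p = 0.0136). The COX1 call was lost in the fit to all 12 libraries, without skn-1gf replicate 1 and without each double mutant library. By length, 9.14% of genes under 500 bases were higher and 45.8% lower, against 34.6% and 7.25% of genes over 4000 bases. The log2 change rose with gene length across genes (Spearman's rho = 0.28). The departures of skn-1gf replicates 2 and 3 from their group mean ran with length at rho = -0.23 and 0.16. Removal of a length trend from each library left 5899 calls.

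**Figure D5:**
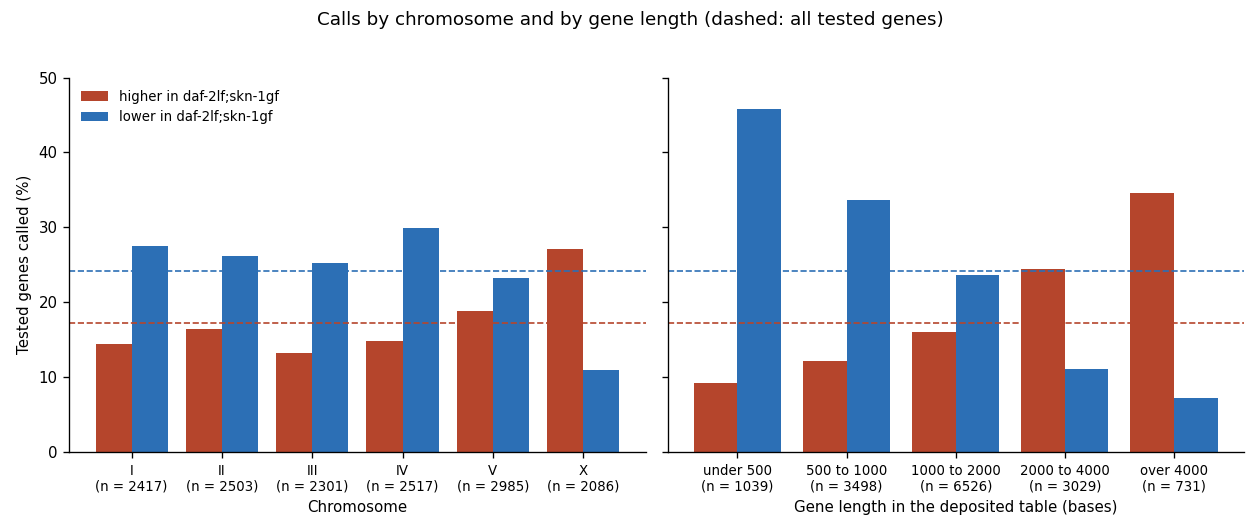
Percent of tested genes called higher (red) or lower (blue) in daf-2lf;skn-1gf than in skn-1gf, by nuclear chromosome (left) and by gene length in the deposited table (right), with the number tested under each pair of bars and dashed lines at the shares of all tested genes. Chromosome X is the only one with more genes higher than lower, and the share higher grows from 9.14% under 500 bases to 34.6% over 4000 bases.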

How the data were processed

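RNA-seq was deposited for 12 libraries of whole worms of 4 genotypes. The authors deposited one table of whole-number counts per gene, not normalized. The sources used here name no aligner or counting program, and how strand and multiply matching reads were handled is not given in the sources used here. Per the submitters' processing notes the build was ce10, but per the file headers the chromosome versions are those of WBcel235. Coordinates are those of the deposited table, and 46920 of its 46936 identifiers matched a RefSeq gene table of WBcel235, 45476 with the same start and end.

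Counts were analysed in R 4.3.3 with edgeR 4.0.16. The filter filterByExpr (minimum count 10) kept 14823 genes, and 24038 had 0 counts in the 6 libraries. Libraries were scaled by TMM, and genotypes were compared with edgeR's quasi-likelihood F test on the 3 skn-1gf and 3 double mutant libraries. Genes with a Benjamini-Hochberg adjusted p under 0.05 over all tested genes are called. SE is that of the log2 fold change. daf-2lf against WT was fitted on its own 6 libraries, and the difference of the effects as an interaction over all 12. CPM is the count over the TMM-scaled total of all 12 libraries times 1e6. Where a group had 0 counts, a fold is a bound against 3 counts per library. With 1 to 3 counts it is a ratio with its 95% interval. The biological coefficient of variation was 17.5%. Depth limits levels under about 0.2 CPM.

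The comparison, the gene lists and the rule for named genes were chosen with earlier results of these data known. The rule gave 248 genes, of which a part is described. It took daf-2, skn-1, daf-16, sod-3, mtl-1, gst-4 and gcs-1. It added the called protein-coding genes of at least 2 CPM without overlap that had the 10 largest fitted rises and falls and the 8 largest rises and falls in CPM. From each list it took the 2 called members that rose most, the 2 that fell most and the one with the highest mean CPM. It also took the 5 largest interactions of each sign. Alternatives were RLE and upper quartile scaling, no filter, DESeq2 1.42.0, limma-voom (limma 3.58.1), fits to all 12 or 11 libraries, a replicate block and leaving out each library. Removal of a length trend from each library (loess, span 0.3) was added after seeing the data. The procedure was tested on simulated counts.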

Additional observations from a re-analysis of the deposited data

Results flagged for a closer look

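The effect of daf-2lf differed between worms with and without skn-1gf for 4308 genes in the direct test of the difference, as described above. The 10 genes below were called in that test and in the double mutant against skn-1gf, had a mean of at least 2 CPM, and had the largest differences of either sign.

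Those with a positive difference were 4 collagen genes and Y47D7A.15. For the collagens this means a smaller fall with daf-2lf in skn-1gf worms than without skn-1gf. The col-63 difference was 7.99 log2. It had 1182, 1587 and 891 CPM in WT, 0.552, 0.239 and 0 CPM in daf-2lf, 3.87, 4.34 and 10.9 CPM in skn-1gf and 0.273, 0.364 and 0.454 CPM in the double mutant, so the skn-1gf libraries without daf-2lf were already far below WT. The daf-2lf levels of col-63 were near the 3-count floor, 0.150 to 0.179 CPM in daf-2lf, so the size of its difference is uncertain. The order WT above skn-1gf above both genotypes with daf-2lf also held for rol-1 (7.79 log2), col-138 (6.24 log2) and col-49 (5.86 log2). Overlapping genes amounted to 646% of the col-138 counts. The uncharacterized gene Y47D7A.15 (7.85 log2) had 273, 538 and 180.2 CPM in WT, 143, 87.7 and 91.1 CPM in daf-2lf, 0.809, 1.53 and 1.24 CPM in skn-1gf and 62.4, 96.7 and 108 CPM in the double mutant. Only the skn-1gf libraries were low.

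Those with a negative difference were all nearly silent in WT. For decr-1.1 and fipr-6 every WT library lay below the 3-count floor, 0.113 to 0.145 CPM in WT. The sizes of their differences, and so their ranks, are uncertain, and no bound or interval is given for them. The dienoyl-CoA reductase gene decr-1.1 (-8.60 log2) had 0.0378, 0 and 0.0462 CPM in WT, 6.37, 2.09 and 3.31 CPM in daf-2lf, 5.08, 8.17 and 3.40 CPM in skn-1gf and 2.14, 1.68 and 1.05 CPM in the double mutant. All mutant libraries were above WT, and the double mutant had the lowest mean of the 3 mutants. The peptide gene fipr-6 (-7.79 log2) had 0.0756, 0 and 0 CPM, 4.21, 2.63 and 2.69 CPM, 2.65, 3.001 and 3.48 CPM and 1.36, 1.59 and 0.873 CPM in the same order. The uncharacterized genes F14F9.8 (-7.21 log2), C04E12.10 (-6.84 log2) and W03F9.11 (-6.45 log2) also had every mutant library above WT. Their falls in the double mutant against skn-1gf were lost in 7, 5 and 5 of 15 alternatives. Without daf-2lf replicate 1 the differences of the 10 genes kept their sign, at 9.26, 8.07, 6.39, 6.18, 8.21, -7.97, -7.45, -7.23, -7.29 and -6.57 log2 in the order named.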

How the results depend on the processing

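With each library left out in turn, the 6147 calls became 4546 to 7705, and they ran from 4944 to 7318 over the other alternatives, all within 1.5 times. It was 6128 with RLE scaling, 6368 with DESeq2 and 3144 where at least 2-fold was required. For daf-2lf against WT the fits without a library gave 4186 to 9508 and for the difference of the effects 2786 to 5921. Same-numbered libraries deviated at r = -0.069, 0.027 and -0.062, so the numbers do not pair them. With the replicate block there were 5386, 5002 and 4080 calls. Of 222 called named genes, 168 kept their call under all 15 alternatives, and 26 lost it in the fit to all 12 libraries. Signs turned for genes with small changes. With single libraries left out, the log2 change ran from -0.25 to 0.056 for col-144, -0.59 to 0.084 for glh-1, -0.24 to 0.047 for hsp-25, -0.16 to 0.097 for lgg-1, -0.32 to 0.036 for nlp-24, -0.080 to 0.42 for rad-50 and -0.30 to 0.016 for spp-5. After the length trend was removed it was 0.025 for col-144, -0.034 for fasn-1, 0.19 for lgg-1, 0.30 for nlp-24, 0.056 for nlp-77, -0.073 for rad-50, -0.078 for rpn-2 and 0.35 for spp-5. The causes were not tested. Of 108 list counts, 30 moved by over 1.5 times without skn-1gf replicate 3 and 0 with RLE scaling. Genes under about 0.2 CPM cannot be told from 0 at this depth.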

Other observations

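Several large families stand outside the comparisons above. F-box A genes, thought to mark proteins for breakdown, were lower in 30 of 130 tested and higher in 9. The share lower, 23.1%, is close to the 24.2% of all genes, and the share higher, 6.92%, compares with 17.3%. The count of higher ones was 14 without skn-1gf replicate 2, with no filter and in the fit to 11 libraries, and 5 without double mutant replicate 2. The gene fbxa-72 fell from 161, 190.1 and 131 CPM in skn-1gf to 53.9, 54.2 and 52.1 CPM in the double mutant (log2 -1.61, SE 0.13, adjusted p = 6.7e-05), against 49.4, 43.7 and 61.7 CPM in WT. Transthyretin-like genes, a nematode family of secreted proteins, were lower in 15 of 46 (32.6%) and higher in 3 (6.52%), with 27 lower without skn-1gf replicate 3 and 1 higher without double mutant replicate 2. With no filter and in the fit to 11 libraries 23 were lower, and after the length trend was removed 8 were higher. The gene ttr-44 rose from 27.4, 31.9 and 20.7 CPM to 55.6, 56.8 and 55.4 CPM (log2 1.05, SE 0.15, adjusted p = 7.3e-04). In the pals family, whose members act in the response to intracellular pathogens, 6 of 17 rose and 3 fell, with 5 lower without skn-1gf replicate 3. The gene pals-26 rose from 0.405, 0.575 and 0.663 CPM to 9.28, 10.2 and 12.04 CPM (log2 4.23, SE 0.25, adjusted p = 2.4e-05).

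Gut proteases were higher in 8 of 21 tested and lower in 0. The lysosomal aspartyl protease gene asp-3 had 2482, 2497 and 2291 CPM in skn-1gf and 3732, 3867 and 4602 CPM in the double mutant (log2 0.73, SE 0.12, adjusted p = 0.00153), and asp-12 had 278, 290.3 and 322 CPM and 692, 848 and 1232 CPM (log2 1.62, SE 0.20, adjusted p = 4.5e-04). No libraries overlapped for either. Histone genes were higher in 7 of 32 (21.9%) and lower in 3 (9.4%), against 17.3% and 24.2% of all genes. The higher count was 4 without skn-1gf replicate 1 or double mutant replicate 2, 13 in the fit to 11 libraries and 17 after the length trend was removed. The lower count was 5 without skn-1gf replicate 3, 1 without double mutant replicate 3 or after the length trend was removed, and 6 with upper quartile scaling and in the fit to 11 libraries. Of 450 pseudogenes tested 42 were higher and 148 lower.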
